A study of Mus musculus with 7 samples.

Results

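Interferon-stimulated and antiviral genes were examined in the mouse mesenchymal cell line C3H10T1/2 with and without activation of the Hedgehog pathway by purmorphamine, a small-molecule agonist of Smo. Members were taken from the table by gene symbol. They were the interferon regulatory factors, Stat signal transducers, the Ifit, Ifitm, Oas, Gbp and Ifi families, the immunoproteasome subunits and 15 further antiviral and antigen presentation genes, and 65 of the 18468 genes in the table matched. The cells had been kept without serum for 12 h and were then exposed for 48 h, still without serum, to 2 μM purmorphamine (n = 4 libraries, numbered 5 to 8) or to 0.02% DMSO as vehicle (n = 3 libraries, numbered 2 to 4). All 7 libraries are of 1 cell line with no genetic change and no added virus or interferon, and the labels do not say whether they are separate cultures, so that p-values measure the spread between these libraries. Stat5a and Stat5b do not match the rule, and Psmb9 and Irf4 were not analysed here.

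Interferons are secreted proteins that bind receptors on the same or neighboring cells. Type I interferons act through Ifnar1 and Ifnar2 and the kinases Jak1 and Tyk2 to form ISGF3, a complex that contains Stat2 and Irf9 and binds the interferon-stimulated response element (ISRE). Interferon-γ acts through Ifngr1 and Ifngr2 and the kinases Jak1 and Jak2 and leads to binding of the γ-activated site (GAS). The genes so induced encode sensors of foreign nucleic acid, proteins that block viral entry, translation or replication, GTPases directed against intracellular microbes, and the machinery that loads peptides onto MHC class I. Fibroblasts and related stromal cells hold the receptors and express many of these genes at a low level in the absence of infection.

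The values are sense-strand reads per gene, which the authors had resampled to equalize the libraries. Totals ran from 14341258 to 14342154 reads with DMSO and from 14337225 to 14339393 with purmorphamine, so that a count of 0 leaves room for 3 reads (0.209 CPM, or counts scaled to the library size) by counting error alone. Log2 fold changes are of purmorphamine over DMSO, from edgeR's quasi-likelihood test, and calls were made where the p adjusted over the 12388 genes tested (Benjamini-Hochberg) was under 0.2. A fold change is followed by its standard error (SE). Gli1, a direct Hedgehog target, had 7 to 12 reads with DMSO and 2522 to 3171 with purmorphamine, in accord with the labels. All 10 mesenchymal markers examined were tested, and their summed reads ran from 370971 to 394422 with DMSO and from 360934 to 396063 with purmorphamine. Of the 10, 4 (40%) rose, among them Fbn1, Pdgfra and Thy1 (log2 fold changes of 1.23, 0.76 and 0.74). A further 3 (30%) fell, among them Vim (-0.96), where 31.4% of all genes tested rose and 31.1% fell. Of 13 immune markers 8 had a row, with summed reads of 129 to 130 with DMSO and 115 to 130 with purmorphamine, and the defining markers Ptprc and Itgam had at most 1 read in any library. The others included Cd14 (66 to 70 reads with DMSO and 44 to 61 with purmorphamine, called lower with an edgeR adjusted p of 0.0263), Lyz2 (40 to 43 and 45 to 63 reads, not called) and Cd68 (10 to 18 reads over all libraries, not called). Summed reads of 5 endothelial markers rose from 781 to 821 with DMSO to 1898 to 2154 with purmorphamine. Tek and Cdh5 made up that difference, whereas Pecam1 had at most 5 reads and Kdr at most 4 in any library, and the part of endothelial-type expression in the results that follow was not tested. Fewer cells of a type and less RNA per cell cannot be told apart in bulk RNA.

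Purmorphamine raised a large fraction of these genes by modest amounts. Guanylate-binding proteins, the Ifi202b, Ifi203 and Ifi204 cluster, Ifit3, Ifitm1 and Oas2 were among those that rose, whereas Isg15, Usp18, Ifit1 and Irf7 were not called and Tap1 and Tap2 fell. Of the 65 members 48 passed the filter on low counts. Among these, 27 (56.2%) were higher with purmorphamine, 6 (12.5%) were lower and 15 were not called. The background was large, since 31.4% of all genes tested were called higher and 31.1% lower. The median log2 fold change of the tested members was 0.22, with a range from -0.70 to 1.89, and that of all genes tested was 0.0038. At least a 1.5-fold increase was seen for 11 members (22.9%), against 7.89% of all genes tested, and at least a 1.5-fold decrease for 2 (4.17%), against 7.56%. Every purmorphamine library was above every DMSO library for 23 members (47.9%; 29.1% of all genes tested) and below for 4 (8.33%; 20.4% of all genes tested). Overlap, here and below, is of the reads as deposited, whereas the fold changes are from reads scaled further. Reads for all 65 members together came to 0.217% to 0.226% of the DMSO libraries and 0.246% to 0.264% of the purmorphamine libraries. B2m, Ifitm2, Stat3 and Stat6 held 55.9% of those reads with DMSO. Of the tested members 2, Oas2 and Ifi27l2a, had a mean under 10 reads with DMSO.

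**Figure D1:**
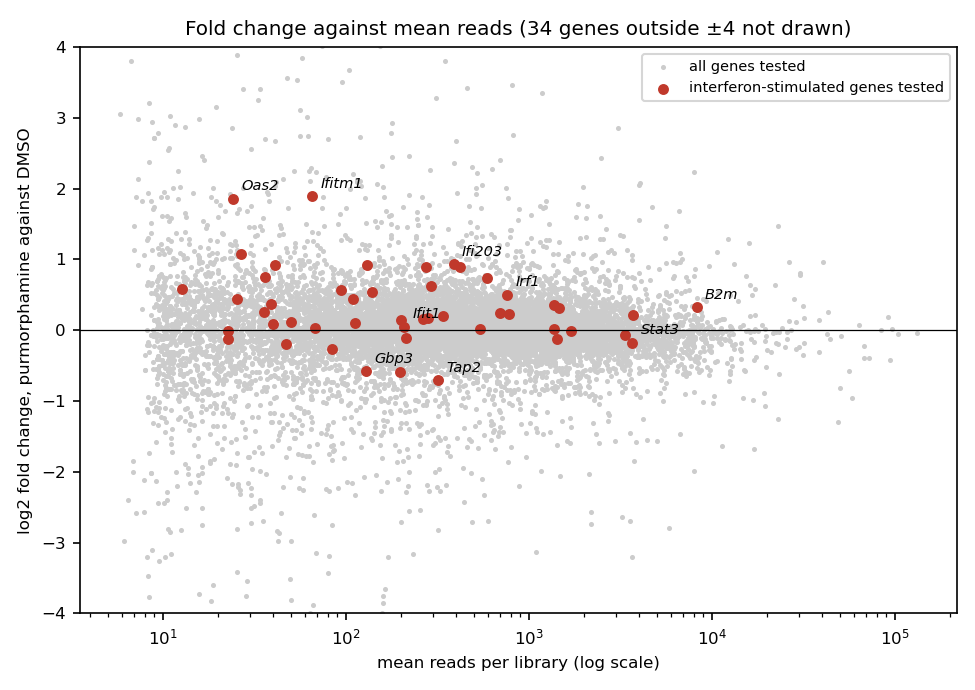
Log2 fold change of purmorphamine against DMSO (vertical) and mean reads per library (horizontal, log scale) for all genes tested in gray, except 34 outside ±4, with the 48 tested members in red. Most members lie above 0, and Ifitm1 (1.89) and Oas2 (1.86) stand highest and Tap2 (-0.70) lowest among them.

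**Figure D2:**
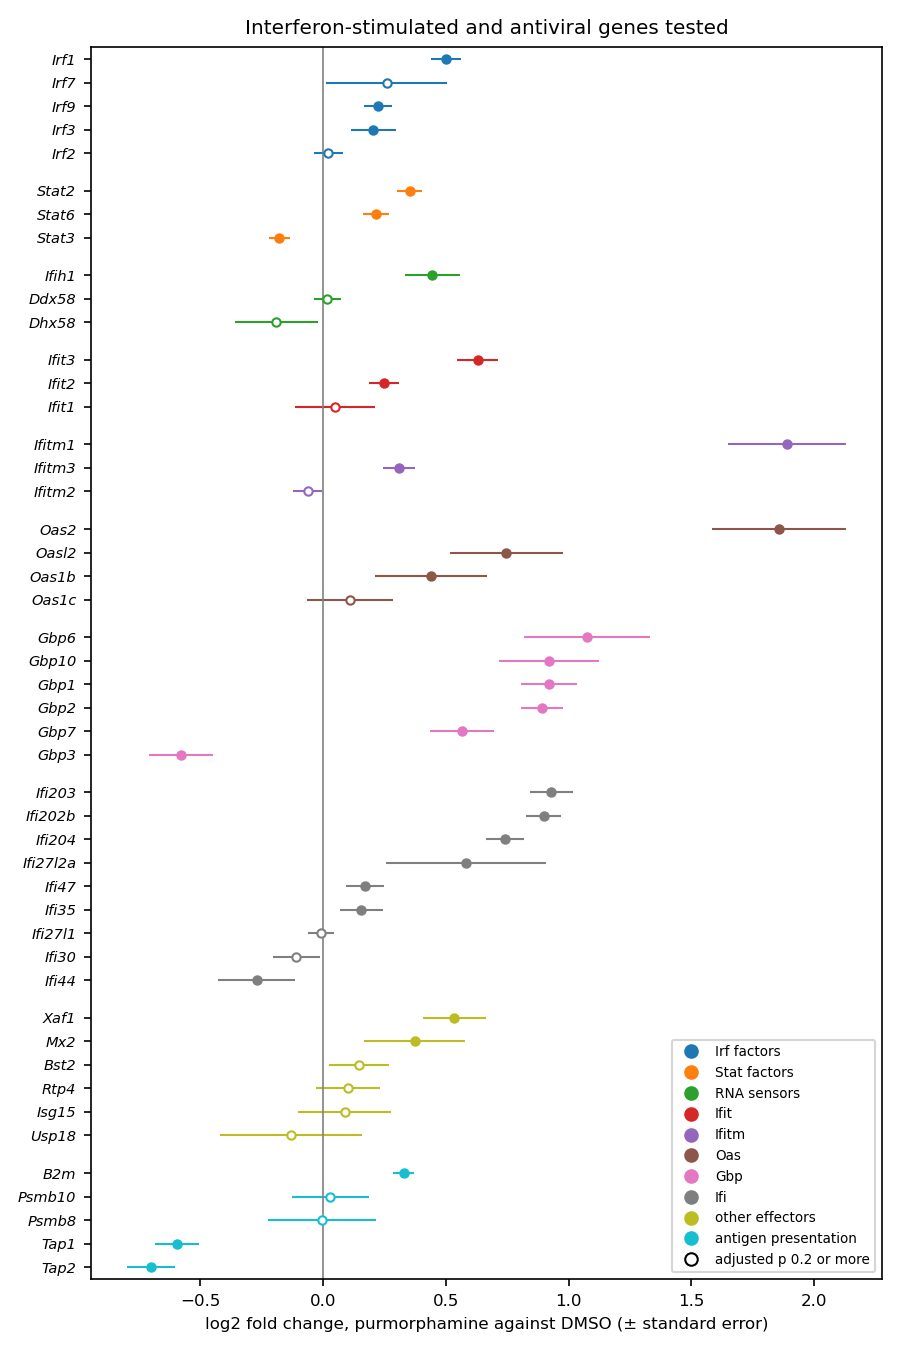
Log2 fold change of purmorphamine against DMSO with its SE from edgeR (horizontal) for the tested members that are named, colored by role, with open points for members that were not called. The Gbp genes other than Gbp3 lie to the right of 0 (0.57 to 1.08), and Tap1 and Tap2 lie farthest to the left (-0.60 and -0.70).

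Sequences just upstream of 9 members are shown because they hold the elements that interferon signaling is known to use, in members that rose, fell or were not called. They are the reference (RefSeq, GRCm38.p6) and not that of these cells, each written 5′ to 3′ on the gene's own strand with the element in capitals. An element was searched for on both strands in the 250 bases before the RefSeq start, as TTTC, any 2 bases and TTTC for the core of the ISRE and TTCNNNGAA, which reads the same on both strands, for GAS. The positions are chr3:142620594-142620623 (Gbp2), chr3:142530273-142530302 (Gbp7), chr19:34583397-34583426 (Ifit3), chr2:122147538-122147567 (B2m), chr10:128270266-128270295 (Stat2) and chr11:53769914-53769942 (Irf1) for genes that rose, chr3:142559989-142560018 for Gbp3, which fell, and chr19:34640794-34640823 (Ifit1) and chr4:156200871-156200900 (Isg15, minus strand) for genes that were not called.
Gbp2 ISRE: actcttttagTTTCACTTTCactgtcttaa
Gbp7 ISRE: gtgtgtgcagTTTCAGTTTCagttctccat
Ifit3 ISRE: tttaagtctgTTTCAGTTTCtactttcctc
B2m ISRE: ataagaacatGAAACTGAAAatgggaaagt
Stat2 ISRE: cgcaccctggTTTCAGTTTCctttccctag
Irf1 GAS: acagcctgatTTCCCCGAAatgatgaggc
Gbp3 ISRE: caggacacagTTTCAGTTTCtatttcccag
Ifit1 ISRE: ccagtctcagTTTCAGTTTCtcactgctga
Isg15 ISRE: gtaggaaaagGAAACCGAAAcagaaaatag

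In B2m and Isg15 the element is on the opposite strand, so that its complement is read. Only 1 match per gene is shown, and Ifit3, Ifit1, Gbp3 and Isg15 held further matches to the ISRE core. In the matches shown, the same 10 letters are capitalized in Gbp7, Ifit3 and Stat2, which rose. They are also capitalized in Gbp3, which fell, and in Ifit1, which was not called. The further match read TTTCACTTTC in Ifit3 and Ifit1 and TTTCTATTTC in Gbp3, so that the identity of letters depends on the match chosen. Of the 65 members 45 matched a RefSeq promoter by symbol, and 17 of these (37.8%) held the ISRE core, against 936 of all 27025 genes with a promoter (3.46%). GAS was present in 11 (24.4%), against 2197 of all genes (8.13%). Both were present in 4, and in 1 of these, Bst2, they overlapped. Among the matched members that rose, 6 of 19 held the ISRE core and 4 of 19 held GAS. The ISRE core was present in 6 of the 11 matched members that were tested and not called, namely Bst2, Ifit1, Ifitm2, Irf2, Isg15 and Oas1c. Of the 4 matched members that fell, 1 held the ISRE core and none held GAS. A match is to these letters only and does not show that a factor was bound.

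Among the transcription factors of the pathway, Irf1, Irf9, Irf3, Stat2 and Stat6 rose and Stat3 fell, all by less than 1.5-fold. Irf1 (chr11:53770014-53778374, GRCm38), an early target of interferon-γ that itself activates antiviral and antigen presentation genes, had 590, 598 and 617 reads in the DMSO libraries and 889, 967, 838 and 827 with purmorphamine. Each purmorphamine library lay well above the DMSO libraries. The log2 fold change was 0.50 (SE 0.0621, edgeR adjusted p = 4.21e-06), and the exact permutation test, two-sided, gave p = 0.0286, the smallest that 3 libraries against 4 allow. Irf9, the DNA-binding subunit of ISGF3, had 725, 675 and 695 reads with DMSO and 910, 830, 799 and 831 with purmorphamine. All 4 treated libraries were above the controls, by a log2 fold change of 0.22 (SE 0.0585, edgeR adjusted p = 0.00474). Irf3, which is activated by viral nucleic acid to induce interferon-β, had 310, 304 and 305 reads with DMSO and 391, 418, 332 and 317 with purmorphamine. The groups did not overlap in these reads, although purmorphamine libraries 7 and 8 were close to the controls. On scaled reads purmorphamine library 8 lay within the range of the controls. The log2 fold change of Irf3 was 0.20 (SE 0.0918, edgeR adjusted p = 0.0801), whereas its exact permutation test on scaled reads gave p = 0.229.

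Irf7, the factor that amplifies type I interferon production, had only 22, 31 and 41 reads with DMSO and 53, 31, 29 and 42 with purmorphamine. These ranges overlapped, and the log2 fold change of 0.26 (SE 0.247, edgeR adjusted p = 0.416) was not called. Without DMSO replicate 4, the highest control, it was 0.51 with an adjusted p of 0.168 from edgeR. Irf2, an antagonist of Irf1, had a log2 fold change of 0.02 (adjusted p = 0.802 from edgeR). Irf5 and Irf8, factors prominent in immune cells, were not tested, and neither exceeded 7 reads in any library.

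Stat2 (chr10:128270559-128292849), a subunit of ISGF3, had 1165, 1111 and 1191 reads with DMSO and 1574, 1569, 1425 and 1534 with purmorphamine. No treated library came near the control range, and the log2 fold change was 0.35 (SE 0.0508, edgeR adjusted p = 2.21e-05). Stat3, which transmits signals of the interleukin-6 family, had 3810, 3877 and 3922 reads with DMSO and 3603, 3613, 3445 and 3478 with purmorphamine. It was lower in each of the 4 treated libraries than in any control, by a log2 fold change of -0.18 (SE 0.0427, edgeR adjusted p = 0.00254). Stat6, the factor of interleukin-4 signaling, rose by a log2 fold change of 0.22 (SE 0.0532, edgeR adjusted p = 0.00299) from 3285 to 3375 reads with DMSO to 3785 to 4433 with purmorphamine. Stat4, the factor of interleukin-12 signaling, was not tested. It had 3, 9 and 12 reads with DMSO and 1, 0, 2 and 0 with purmorphamine, at least 2.67-fold lower when the DMSO mean is set against 3 reads per library.

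Cytosolic sensors of viral RNA differed among themselves. Ifih1, which encodes MDA5, had 88, 84 and 95 reads with DMSO and 128, 116, 132 and 125 with purmorphamine. The groups did not overlap, and the log2 fold change was 0.45 (SE 0.113, edgeR adjusted p = 0.00382). Ddx58, which encodes RIG-I, was far more abundant, at 1324 to 1353 reads with DMSO and 1304 to 1538 with purmorphamine, and was not called (0.02, adjusted p = 0.836 from edgeR). Dhx58, the regulator of both, was not called either (-0.19, adjusted p = 0.383 from edgeR).

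**Figure D3:**
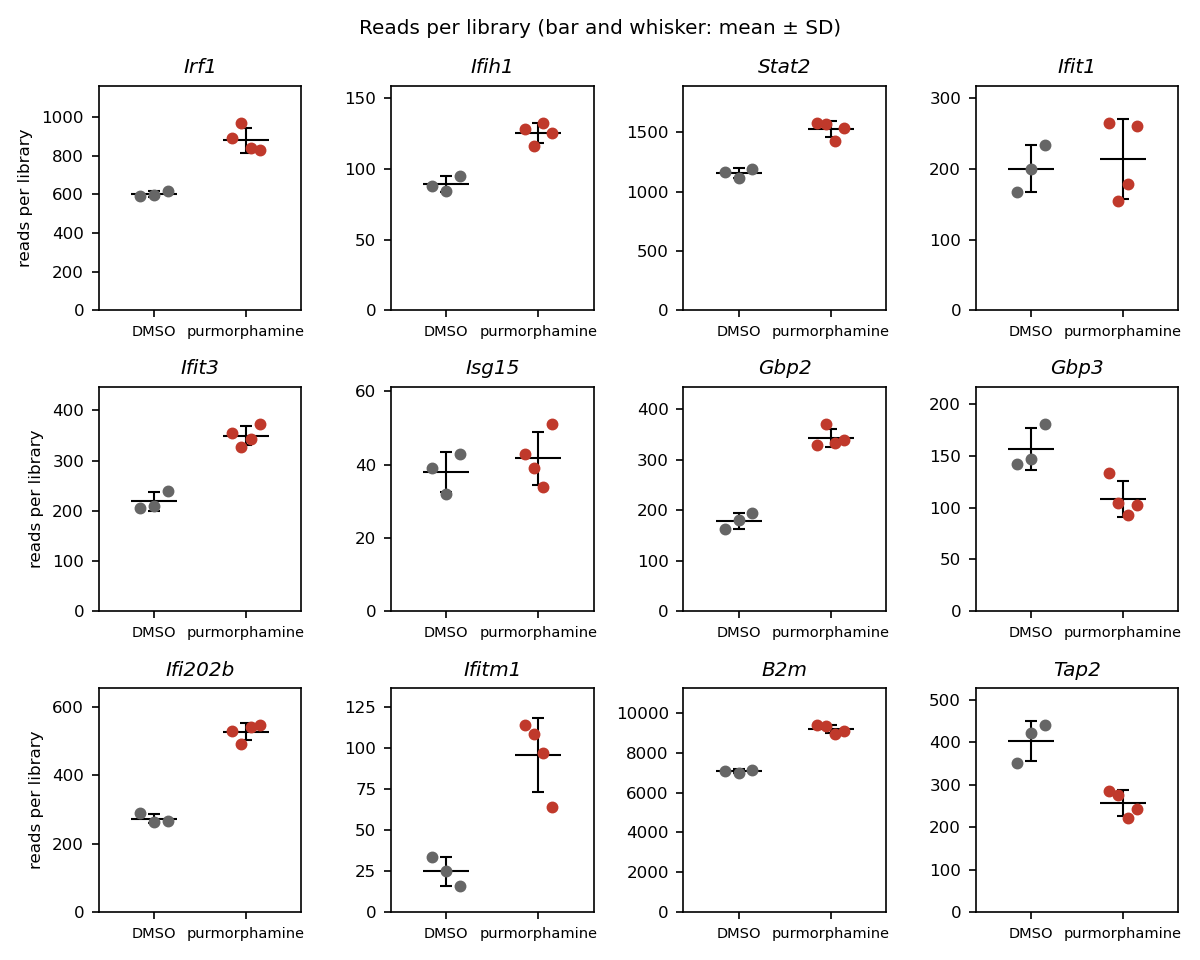
Reads per library (vertical, linear from 0) for 12 members, each point being 1 of the 3 DMSO or 4 purmorphamine libraries, with the mean and SD of each group as bar and whisker. The groups are apart for Ifitm1 (16 to 34 and 64 to 114 reads) and mixed for Isg15 (32 to 43 and 34 to 51 reads).

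Members of the same antiviral family were not all called, and for the Ifit, Ifitm and Oas families, whose genes are alike in sequence, how reads that match several of them were assigned is not given in the sources used here. Of the 3 Ifit genes, which encode proteins that bind viral RNA and lie side by side on chromosome 19, Ifit3 (chr19:34583531-34588731) had 206, 210 and 240 reads with DMSO and 355, 328, 343 and 372 with purmorphamine. Each treated library was far above the controls, and the log2 fold change was 0.63 (SE 0.0838, edgeR adjusted p = 9.51e-06). Ifit2 rose less, from 618 ± 5.51 reads (SD, n = 3) to 758.5 ± 49.3 (SD, n = 4), by a log2 fold change of 0.25 (SE 0.0617, edgeR adjusted p = 0.00336). Ifit1 had 167, 200 and 234 reads with DMSO and 264, 154, 178 and 260 with purmorphamine. Its treated libraries fell into the range of the controls and beyond it on both sides, with a coefficient of variation of 26.3% where counting alone would give 6.84%. The log2 fold change of Ifit1 was 0.05 (SE 0.164, edgeR adjusted p = 0.838).

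The Ifitm genes encode small membrane proteins that restrict entry of viruses. Ifitm1 (chr7:140967221-140969825) showed the highest fold change of all 48 tested members, with 34, 25 and 16 reads in the DMSO libraries and 114, 109, 97 and 64 with purmorphamine. The lowest treated library was above the highest control. The log2 fold change was 1.89 (SE 0.240, edgeR adjusted p = 5.57e-06) and ran from 1.66 to 2.18 with single libraries left out. Ifitm3, much the more abundant, had 1237, 1217 and 1314 reads with DMSO and 1765, 1713, 1419 and 1536 with purmorphamine. These did not overlap, and the log2 fold change was 0.31 (SE 0.0660, edgeR adjusted p = 0.00099). Ifitm2, the most abundant of the 3 tested, was not called (-0.06, adjusted p = 0.401 from edgeR), with 3222 to 3679 reads with DMSO and 3107 to 3598 with purmorphamine, but without purmorphamine replicate 6 it was called as lower (-0.09, adjusted p = 0.189). Ifitm5, Ifitm6 and Ifitm7 had at most 8 reads in any library and were not tested.

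The Oas genes encode synthetases of 2′-5′ oligoadenylate, which activates RNase L, or proteins related to them. Oas2 (chr5:120730333-120749853) had 9, 6 and 13 reads with DMSO and 41, 35, 28 and 37 with purmorphamine. The counts were low but did not overlap, and the log2 fold change was 1.86 (SE 0.274, edgeR adjusted p = 2.9e-05). Oasl2 had 27, 22 and 27 reads with DMSO and 63, 39, 36 and 38 with purmorphamine. Purmorphamine replicate 5 stood above the other three, and the log2 fold change of 0.75 (SE 0.231, edgeR adjusted p = 0.0141) was 0.53 without it. Oas1b had 23, 22 and 17 reads against 35, 28, 31 and 22 and was called as higher (0.44, adjusted p = 0.128 from edgeR), but not without DMSO replicate 4 (adjusted p = 0.353) or purmorphamine replicate 5 (adjusted p = 0.275). Oas1c was not called (0.11, adjusted p = 0.645 from edgeR), and Oas1a and Oasl1 had at most 4 reads in any library.

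Guanylate-binding proteins, GTPases that assemble on the vacuoles of intracellular microbes, had the highest median log2 fold change of the 10 role groups (0.90 over 6 tested members). Of these 5 (83.3%) rose and 1 (16.7%) fell, against 31.4% and 31.1% of all genes tested. Gbp2 (chr3:142620602-142638008) had 163, 180 and 194 reads with DMSO and 329, 370, 334 and 339 with purmorphamine. Its groups were far apart, with a log2 fold change of 0.89 (SE 0.0861, edgeR adjusted p = 2.06e-07). Gbp1 rose similarly, from 91, 90 and 73 reads to 155, 177, 159 and 171, by a log2 fold change of 0.92 (SE 0.114, edgeR adjusted p = 4.37e-06). Neither had a treated library within the range of the controls. Gbp6 had 18, 11 and 19 reads with DMSO and 35, 45, 34 and 26 with purmorphamine, with a log2 fold change of 1.08 (SE 0.256, edgeR adjusted p = 0.00236). Gbp10 had 21, 32 and 27 reads with DMSO and 51, 52, 64 and 42 with purmorphamine, with a log2 fold change of 0.92 (SE 0.205, edgeR adjusted p = 0.00138). For both genes the treated libraries were all above the controls.

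Gbp7 and Gbp3 lie next to each other on chromosome 3, on the same side of Gbp2, and moved in opposite directions. Gbp7 had 68, 69 and 81 reads with DMSO and 114, 100, 104 and 127 with purmorphamine, with a log2 fold change of 0.57 (SE 0.131, edgeR adjusted p = 0.00194). Gbp3 (chr3:142560026-142573209) had 142, 147 and 180 reads with DMSO and 133, 104, 93 and 102 with purmorphamine. All 4 treated libraries were below the controls, the nearest at 133 reads against 142, and the log2 fold change was -0.58 (SE 0.130, edgeR adjusted p = 0.00149). Both changes fell just short of 1.5-fold. Gbp4, Gbp5, Gbp9 and Gbp11 had at most 6 reads in any library and were not tested. Members of this family are alike in sequence, and how reads that match several of them were assigned is not given in the sources used here, so that the division of reads among them is uncertain. The identifiers of the rows named Gbp1 and Gbp10 have no entry in GENCODE M21, those of Gbp5 and Gbp6 carry the symbols Gbp2b and Gm43302 there, and the names used here are those of the table.

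The p200 genes Ifi202b, Ifi203 and Ifi204, which lie in a cluster on chromosome 1 and encode proteins that bind DNA or take part in its sensing, rose together. Ifi202b (chr1:173962568-173982744) had 290, 265 and 267 reads with DMSO and 531, 492, 542 and 546 with purmorphamine. Its log2 fold change was 0.90 (SE 0.0720, edgeR adjusted p = 1.9e-08), the smallest adjusted p of any member. Ifi203 (chr1:173920407-173942672) had 227, 276 and 248 reads with DMSO and 477, 442, 506 and 546 with purmorphamine, with a log2 fold change of 0.93 (SE 0.0883, edgeR adjusted p = 1.64e-07). Ifi204 (chr1:173747293-173766943) had 446, 394 and 415 reads with DMSO and 733, 630, 764 and 763 with purmorphamine, with a log2 fold change of 0.74 (SE 0.0770, edgeR adjusted p = 5.11e-07). The groups were far apart for all 3 genes, and purmorphamine replicate 6 was the lowest treated library for each of them. These genes are also alike in sequence, with the same uncertainty on the division of reads. Their neighbor Ifi205 had at most 3 reads in any library.

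Of the other Ifi genes tested, 3 were called higher and 1 lower, all by less than 1.5-fold, and 2 were not called. Among all genes tested, 31.4% were called higher and 31.1% lower. Ifi47, an immunity-related GTPase, had 250 to 263 reads with DMSO and 284 to 315 with purmorphamine, without overlap (log2 fold change 0.17, adjusted p = 0.0765 from edgeR), and its call was lost without DMSO replicate 3 (0.15, adjusted p = 0.214). Ifi35 was called as higher (0.16, adjusted p = 0.154 from edgeR) and Ifi44 as lower (-0.27, adjusted p = 0.169 from edgeR), with overlapping groups for both. Ifi35 lost its call without DMSO replicate 2 or 3 or without purmorphamine replicate 5 or 6 (adjusted p of 0.361, 0.304, 0.25 and 0.252), and Ifi44 without DMSO replicate 2 or 4 or without purmorphamine replicate 6 or 7 (0.245, 0.443, 0.414 and 0.302). Ifi27l2a had 7 to 14 reads with DMSO and 12 to 20 with purmorphamine, and it was called as higher (0.58, adjusted p = 0.157 from edgeR) except without DMSO replicate 3 (0.352), DMSO replicate 4 (0.414) or purmorphamine replicate 5 (0.347). Ifi27l1, among the most abundant of the members, whose identifier carries the symbol Ifi27 in GENCODE M21, was not called (-0.01, adjusted p = 0.901 from edgeR), nor was Ifi30, a lysosomal thiol reductase (-0.11, adjusted p = 0.37 from edgeR), which was called as lower without purmorphamine replicate 5 (-0.17, adjusted p = 0.183).

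Several of the best known interferon-stimulated genes were low in both groups, and of these the ones tested were not called. Isg15, which encodes a ubiquitin-like modifier, had 39, 32 and 43 reads with DMSO and 43, 39, 34 and 51 with purmorphamine. The ranges were nearly the same, and the log2 fold change was 0.09 (SE 0.189, edgeR adjusted p = 0.736). Usp18, the protease that removes Isg15, had 16, 21 and 33 reads with DMSO and 27, 13, 26 and 22 with purmorphamine (-0.13, adjusted p = 0.742 from edgeR). Rsad2, which encodes viperin, had at most 1 read in any library, Mx1 at most 3 and Isg20 at most 8. Rsad2, Mx1 and Isg20 were not tested. At the counts of Isg15 and Usp18 a change of modest size could have been missed. Bst2, which encodes tetherin, and Rtp4 were more abundant and were not called either (0.15 and 0.10, adjusted p of 0.344 and 0.557 from edgeR), although without purmorphamine replicate 6, their lowest treated library, both were (0.24 and 0.22, adjusted p of 0.088 and 0.115).

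Among the antiviral effectors outside the Ifit, Ifitm, Oas, Gbp and Ifi families, Xaf1, a promoter of apoptosis, was the tested member that rose without overlap. It had 98, 103 and 122 reads with DMSO and 167, 131, 161 and 186 with purmorphamine, with a log2 fold change of 0.54 (SE 0.129, edgeR adjusted p = 0.00262). Mx2, a GTPase, had 31, 32 and 35 reads against 58, 36, 46 and 35. It was called as higher (0.37, adjusted p = 0.152 from edgeR), but not without DMSO replicate 2 (0.29), DMSO replicate 3 (0.269), purmorphamine replicate 5 (0.413) or purmorphamine replicate 7 (0.21).

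**Figure D4:**
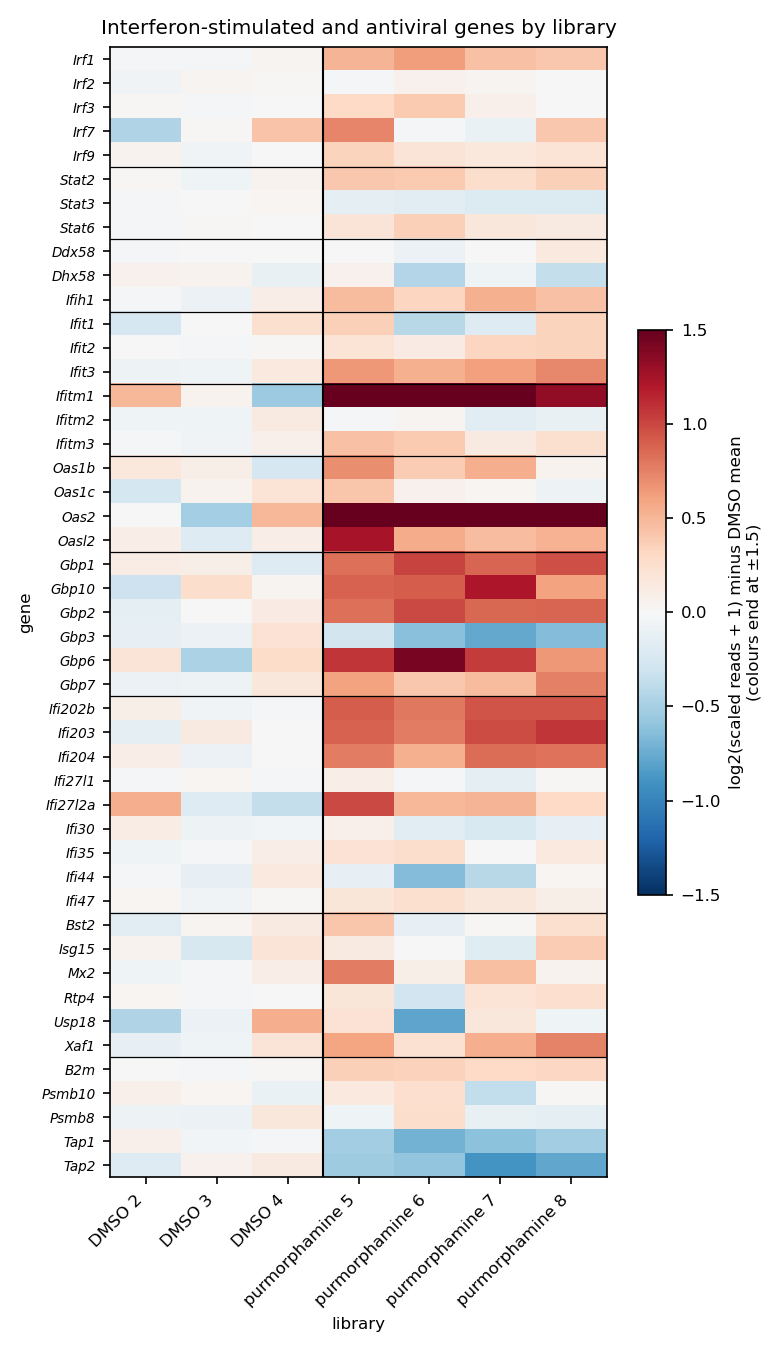
Log2 of scaled reads plus 1 relative to the DMSO mean for the tested members that are named (rows, by role) in each of the 7 libraries (columns), from blue (lower) to red (higher), with colors ending at ±1.5. Irf1 lies between -0.03 and 0.04 in the DMSO libraries and between 0.41 and 0.63 in the purmorphamine libraries, and Tap1 and Tap2 are blue in all 4 purmorphamine libraries.

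For antigen presentation, the light chain of MHC class I and the peptide transporter moved in opposite directions. B2m (chr2:122147686-122153083), the light chain, had 7095, 6982 and 7148 reads with DMSO and 9359, 9334, 8935 and 9103 with purmorphamine. The libraries of a group lay close together and the groups far apart, with a log2 fold change of 0.33 (SE 0.0428, edgeR adjusted p = 7.45e-06). Tap1 (chr17:34187553-34197225) and Tap2 (chr17:34203527-34216321) encode the 2 subunits of the transporter that carries peptides into the endoplasmic reticulum. Tap1 had 253, 234 and 234 reads with DMSO and 172, 152, 160 and 173 with purmorphamine, with a log2 fold change of -0.60 (SE 0.0883, edgeR adjusted p = 3.02e-05). Tap2 had 351, 422 and 440 reads with DMSO and 286, 277, 221 and 243 with purmorphamine, with a log2 fold change of -0.70 (SE 0.0973, edgeR adjusted p = 1.47e-05). Both were lower in all 4 treated libraries than in any control, and of the 48 tested members they were the only ones called with a decrease of at least 1.5-fold.

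Psmb8, an immunoproteasome subunit that lies in the MHC region with both Tap genes, had 21, 21 and 25 reads with DMSO and 22, 28, 21 and 21 with purmorphamine. The difference was within the spread between libraries (log2 fold change -0.0048, SE 0.219, edgeR adjusted p = 0.99). Psmb10, encoded elsewhere, was not called (0.03, adjusted p = 0.9 from edgeR).

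Per length, the order of members was led by the same genes in both groups. In RPKM, reads scaled to exon length and library size, B2m stood at 584.5 with DMSO and 734.2 with purmorphamine, Ifitm2 at 366.9 and 351.1, and Ifitm3 at 131.6 and 163.1. Ifi202b was at 11.5 and 21.4, and Isg15 at 3.57 and 3.80. Of the tested members 9 had a mean of at least 1000 reads with DMSO and 13 had fewer than 50.

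Other genes of the pathway were examined from lists. No interferon gene was tested, so that none could be called. Ifne, the only interferon gene analysed, had at most 3 reads in any library and did not pass the filter. The 4 ligand genes tested were interleukins and Lif. Of these, 1 (25%) rose and 2 (50%) fell, against 31.4% and 31.1% of all genes tested. Lif, a cytokine of the interleukin-6 family, had 4, 8 and 2 reads with DMSO and 14, 18, 10 and 18 with purmorphamine (log2 fold change 1.61, SE 0.410, edgeR adjusted p = 0.00386), whereas Il6 fell by 0.84 on the log2 scale (adjusted p = 0.0538 from edgeR).

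Of 13 receptor and kinase genes tested, 5 (38.5%) rose and 3 (23.1%) fell, near the shares over all genes tested (31.4% and 31.1%). Ifngr1 rose by 0.25 (adjusted p = 0.0011 from edgeR), and Ifnar1, Ifnar2 and Ifngr2 were not called (0.06, -0.02 and 0.08 on the log2 scale, adjusted p of 0.241, 0.817 and 0.244). Tyk2 rose by 0.26 and Jak2 fell by 0.22 on the log2 scale (adjusted p of 0.00741 and 0.00299 from edgeR), and Jak1 was not called (0.0045, adjusted p = 0.944). Osmr and Lifr, receptors of the interleukin-6 family that signal through Stat3, had the largest decreases of the receptor list. Osmr went from 2530 to 2565 reads with DMSO to 1323 to 1484 with purmorphamine, and Lifr from 1327 to 1403 to 508 to 594. On the log2 scale Osmr fell by 0.91 and Lifr fell by 1.33 (adjusted p of 8.93e-11 and 6.69e-12 from edgeR).

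Of 12 inhibitors of the pathway tested, 4 (33.3%) were higher and 5 (41.7%) lower, near the shares over all genes tested (31.4% and 31.1%). Socs1, an inhibitor of Jak kinases that interferons induce, had 10, 20 and 13 reads with DMSO and 29, 43, 27 and 22 with purmorphamine. The groups did not overlap, and the log2 fold change was 1.02 (SE 0.292, edgeR adjusted p = 0.00839). Socs3 was not called (-0.11, adjusted p = 0.436 from edgeR), and Socs2 fell by 0.77 on the log2 scale (adjusted p = 4.72e-06 from edgeR). Ptpn6, a phosphatase that acts on cytokine receptors and their kinases, rose by 0.99 (adjusted p = 0.000119 from edgeR). Of 14 sensing and adaptor genes tested, 6 (42.9%) rose and 2 (14.3%) fell.

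A list of 45 further interferon-stimulated genes had 30 members tested, of which 21 (70%) were higher and 3 (10%) lower, against 31.4% and 31.1% of all genes tested, with a median log2 fold change of 0.33. Uba7, the activating enzyme for Isg15, rose from 174 to 187 reads with DMSO to 353 to 481 with purmorphamine (log2 fold change 1.07, adjusted p = 2.85e-07 from edgeR). Trim30a, which encodes a tripartite motif protein, rose from 17 to 25 reads to 53 to 68 (1.44, adjusted p = 9.87e-06 from edgeR). Among the abundant genes of the list, Samd9l rose from 1394 to 1567 reads to 2293 to 2641 (0.68, adjusted p = 4.46e-08 from edgeR). Pml, which organizes nuclear bodies, rose by 0.73 (adjusted p = 2.93e-08 from edgeR), and Parp14 and its neighbor Dtx3l by 0.76 and 0.65 (adjusted p of 1.75e-06 and 2.62e-06). The immunity-related GTPases Irgm2 and Irgm1 moved in opposite directions, Irgm2 by 0.69 and Irgm1 by -0.48 (adjusted p of 5.35e-05 and 3.11e-07 from edgeR), and Irgm1 had 1494 to 1536 reads with DMSO and 1066 to 1172 with purmorphamine. Other increases of at least 1.5-fold were those of Trim30d, Trim21, Sp100, Apol9a, Apol9b and Tgtp2, of which Sp100 had at most 12 reads and Tgtp2 at most 14 in any library. The groups overlapped for Tgtp2, with 6 reads in each DMSO library and 4 to 14 with purmorphamine (adjusted p = 0.196 from edgeR). Trim30d had at most 5 reads in any DMSO library. Eif2ak2, which encodes the RNA-activated kinase PKR, was not called (-0.05, adjusted p = 0.535 from edgeR).

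**Figure D5:**
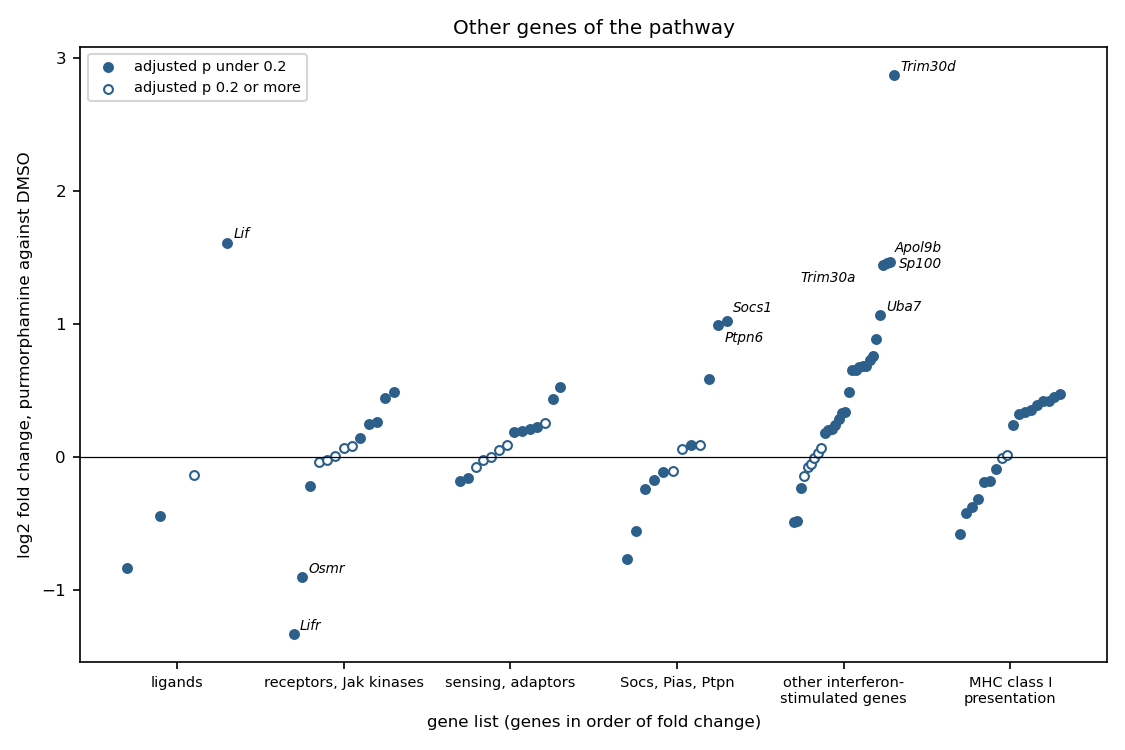
Log2 fold change of purmorphamine against DMSO (vertical) for each tested gene of 6 pathway lists (horizontal, ordered by fold change within a list), with filled points for called genes. Points of the further interferon-stimulated genes are mostly above 0 (21 called higher and 3 lower), and Lifr (-1.33) and Osmr (-0.91) stand lowest among the receptors.

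Genes of MHC class I presentation outside the 65 included 18 tested, of which 9 (50%) were higher and 7 (38.9%) lower, where 31.4% and 31.1% of all genes tested were. The heavy chain H2-K1 had 146, 154 and 156 reads with DMSO and 217, 206, 197 and 204 with purmorphamine, with a log2 fold change of 0.39 (SE 0.0892, edgeR adjusted p = 0.00169). H2-D1 rose by 0.47 (adjusted p = 0.00129 from edgeR), so that both heavy chains named here went up with B2m. Calr, Pdia3 and Canx, chaperones of the endoplasmic reticulum that serve class I molecules among many other proteins, fell by 0.58, 0.42 and 0.19 on the log2 scale (adjusted p of 1.45e-08, 1.7e-06 and 0.00212 from edgeR).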

How the data were processed

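Total RNA depleted of ribosomal RNA was sequenced as stranded single reads of 100 bases. The authors resampled the reads to equal depth and deposited whole-number counts per gene on the sense strand. The submitters' processing notes name STAR 2.5.3a and mm9. The table's coordinates extend exactly 400 bases beyond GENCODE M21 spans for 10489 genes, so GENCODE M21 (GRCm38) supplied positions and exon lengths, matched on the Ensembl identifier (63 of 65 members).

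Counts were tested with edgeR 4.0.16 in R 4.3.3 (TMM factors from 0.978 to 1.02, the default filter with a minimum of 10 counts scaled to library size and a total of 15, quasi-likelihood test, no covariates), with Benjamini-Hochberg adjustment over 12388 genes and the study's FDR of 0.2. Exact permutation tests, two-sided, compared mean log2 of scaled counts plus 1 over 35 assignments of the libraries. The calculations were tested on simulated data. The members and the gene lists were chosen with earlier results of these data known. Members that passed the filter are named, apart from a gene that the rule also covers and that is counted but not reported here. Reads in every library are given for members with an adjusted p under 0.2, at least a 1.5-fold change and a mean of at least 20 reads, for Stat2, Stat3, Irf1, Irf3, Irf7, Irf9, Isg15, B2m, Psmb8 and Ifitm3 whatever their change, and for some others, which were chosen after their values were seen. Listed genes past 1.5-fold are named, as are 10 receptors, kinases, inhibitors and a heavy chain whatever their change; further listed genes were named after their values were seen. Alternatives were DESeq2 size factors, library totals alone, DESeq2 1.42.0, limma-voom (limma 3.58.1, the study's test), other filters, stricter thresholds and each library left out.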

Additional observations from a re-analysis of the deposited data

Results flagged for a closer look

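Among 24 members with their reads given by library and examined for a single library apart from the rest of the purmorphamine group, 2 passed Dixon's 95% critical value for 4 libraries, where chance gives about 5% of groups. For Oasl2, purmorphamine replicate 5 (63 reads) stood above the other treated libraries (36 to 39 reads), with a gap of 0.905 of the group's range. For Psmb8, purmorphamine replicate 6 (28 reads) stood above the others (21 to 22 reads), with a gap of 0.848 of the range.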

How the results depend on the processing

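No paired analysis was possible because the DMSO libraries are numbered 2 to 4 and the purmorphamine libraries 5 to 8, and no number is shared. With single libraries left out, 23 to 28 members were higher and 4 to 7 lower, against 3500 to 3961 and 3374 to 3793 of all genes and 38 to 46 and 18 to 23 of the pathway lists. Requiring at least 1.5-fold left 11 members higher and 2 lower, 977 and 936 of all genes, and 16 and 4 of the lists. Of the 33 calls, 33 were kept with DESeq2 size factors, 32 with limma-voom (Mx2 lost), 31 with library totals, 31 with at least 10 reads in every library (Ifi27l2a and Oas2 not tested), 28 with DESeq2 (Ifi27l2a, Ifi35, Ifi44, Mx2 and Oas1b lost), 25 at an adjusted p under 0.05 and 29 to 33 with single libraries left out, and none of these alternatives reversed a called member. With no filter, Ifi27l2a was lost and Gbp11 and Stat4 were gained. Library totals moved the median of all genes by 0.05. Of members that were not called, Psmb8 changed sign with library totals (0.0425) and no filter (0.0007) and ran from -0.10 to 0.0899 with libraries left out, and Isg15 ran from -0.025 to 0.19. Other members that were not called changed sign too. Among them were Ifit1 (-0.064 without DMSO replicate 2), Usp18 (0.21 without DMSO replicate 4) and Ifi27l1 (0.038 with library totals). The cause was not tested. Depth limits what can be said of the 17 untested members, 8 of which had at most 3 reads in every library.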

Other observations

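MHC class II genes had 7 rows in the table, of which 3 were tested, with none called higher and 1 (33.3%) lower. The shares of all genes tested were 31.4% higher and 31.1% lower. H2-DMa, which helps to load peptides onto class II molecules, had 150 to 152 reads with DMSO and 132 to 178 with purmorphamine and was not called (log2 fold change -0.0018, adjusted p = 0.992 from edgeR). Its partner H2-DMb1 fell from 106 to 149 reads with DMSO to 91 to 117 with purmorphamine (-0.32, adjusted p = 0.0765 from edgeR), with overlapping groups. Cd74, the invariant chain, had 20 to 24 reads with DMSO and 13 to 23 with purmorphamine and was not called (log2 fold change -0.38, adjusted p = 0.22 from edgeR). H2-Aa had at most 2 reads and H2-Eb1 at most 1 in any library.

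In TMM-scaled reads, DMSO replicate 4 was the highest of its group for 28 of the 48 tested members, DMSO replicate 2 for 14 and DMSO replicate 3 for 6. Among the 15 members that were not called, on the same scale, DMSO replicate 4 was the highest control for 8. Purmorphamine replicate 5 was the highest treated library for 8. The same counts were not made over all genes tested. A trait of these members therefore cannot be told apart from one of the whole library.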
